A study of Sinonovacula constricta with 18 samples.

Results

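The intestine of the razor clam Sinonovacula constricta was compared with its labial palp, using the 3 intestine and the 3 labial palp libraries of an RNA-seq series that holds 18 libraries of 6 tissues. The labels describe healthy adults with no treatment, and each library was made from a mixture of 3 individuals. The labels give tissue and replicate number only, so neither the age of the animals nor whether same-numbered pools of different tissues came from the same animals is known. Library totals were between 9982441 and 10505352 estimated reads in the intestine and between 10677055 and 11532787 in the labial palp.

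Bivalves feed by filtration. The gill collects particles and passes them in mucus to the labial palps, paired ciliated flaps beside the mouth that sort particles and either ingest or reject them. The intestine is the last part of the gut, where digestion and absorption are completed and faeces are formed. The files list isoform clusters, consensus transcript sequences with numerical IDs and no gene names, and no sequences of them were analysed here. A cluster is not a gene, since 1 gene can give several clusters. The tissue labels therefore could not be checked against marker genes, and clusters are described by their counts, their levels in other tissues and their length. In bulk tissue, a lower value cannot be told apart as fewer cells of a type or as less RNA per cell.

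The 6 libraries resembled each other more by replicate number than by tissue. The tissues were chosen with it known that their replicate 3 libraries deviate together. This resemblance, and the values by replicate number below, therefore describe the choice and are no independent support. Across the 28234 clusters of the 32250 whose reads in the 6 libraries added up to 10 or more, log2 CPM (counts per 1e+06 reads, scaled by TMM) of intestine 1 correlated with that of labial palp 1 at 0.82, but with those of intestine 2 and intestine 3 at 0.65 and 0.64. For replicates 2 and 3 the correlation between tissues was 0.84 in each. Within a tissue, different numbers lay between 0.63 and 0.73. These coefficients are across clusters, which are not independent replicates.

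**Figure D1:**
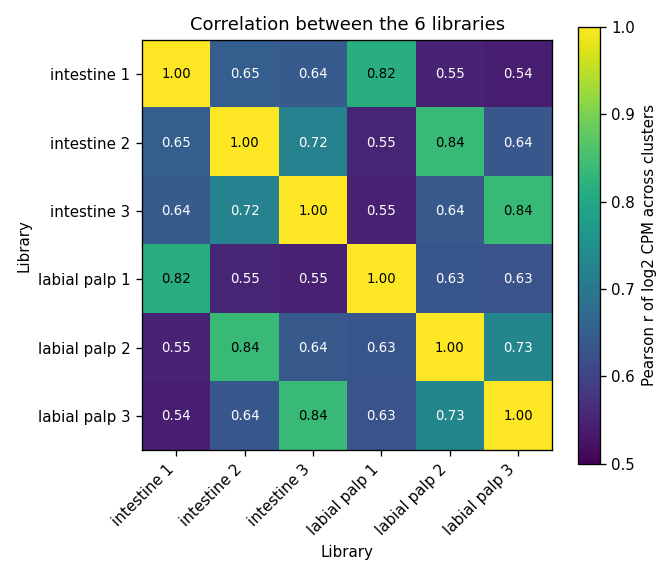
Pearson correlation of log2 CPM across 28234 isoform clusters for each pair of the 6 libraries (axes: libraries, colour: r). The same-numbered intestine and labial palp libraries reach 0.82 to 0.84, above every pair of libraries within a tissue (0.63 to 0.73).

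The sum of squares of log2(CPM + 1) was divided accordingly. Tissue held 23.1% of it (mean square per cluster 1.68), replicate number 69.3% (2.53) and the remainder 7.58% (0.276). The mean square of tissue exceeded that of replicate number in 11484 clusters, 40.7% of those tested. With tissue in the model, 4740 clusters differed by replicate number (16.8% of those tested, edgeR quasi-likelihood F-test, Benjamini-Hochberg adjusted p under 0.05). With 1 number left out, the fits of 4 libraries had 1 residual degree of freedom. Clusters at an unadjusted p under 0.05 then numbered 6758 without replicate 1, 8381 without replicate 2 and 7783 without replicate 3 (edgeR), and 0, 2760 and 2159 passed the adjustment.

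Presence and absence of a cluster also followed the number. In total 654 clusters had at least 10 reads in both replicate 1 libraries and 0 in the other 4, and 139 and 161 did so for replicates 2 and 3. The replicate 1 set took 3.003% of the counts of intestine 1 and 2.79% of those of labial palp 1. The cluster with the second highest mean in the intestine is an example. It held 0.00610% of the counts in intestine 1 and 1.26% in each of intestine 2 and 3, and in the palp 0.00525%, 0.590% and 0.576% in replicates 1, 2 and 3. Both tissues were thus low in replicate 1 and high in replicates 2 and 3. What the replicate number stands for was not tested, and the number was kept as a block in the comparison of the tissues.

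With the block, 2242 clusters differed between intestine and labial palp, which is 7.94% of those tested. Of these, 1139 were higher in the intestine (4.03%) and 1103 higher in the labial palp (3.91%). In simulated counts with known changes, this test gave a share of false calls above the nominal one. The adjusted p-values may therefore be too low. The simulation changed a smaller share of clusters than was called here, and by larger folds than the median of the calls. The share of false calls among the 2242 is therefore not known. Without the block, 603 clusters differed (2.14%), 269 higher in the intestine (0.953%) and 334 higher in the palp (1.18%), and 592 of them were among the 2242. The common biological coefficient of variation was 0.410 with the block and 1.05 without it. Scaled to library totals alone, the 2289 clusters that differed were divided into 921 higher in the intestine and 1368 higher in the palp, and the median log2 difference of all clusters moved from -0.02 to -0.18. The near balance of the directions thus depended on the scaling. Leaving out any 1 library left 1 residual degree of freedom and 0 calls (5583 to 6232 at an unadjusted p under 0.05, edgeR), and this was so for each of the 6 libraries. In a fit of all 18 libraries, which shared the spread of the 6 tissues, 2250 clusters differed, 840 higher in the intestine and 1410 higher in the palp, and 1468 of them were among the 2242. The directions were thus less balanced in this fit too. Between 1413 and 1640 clusters differed there when 1 intestine or palp library was left out, with 1413 reached without labial palp 2. The mantle libraries did not follow the numbering, their deviations from the tissue mean correlating with same-numbered libraries of other tissues at -0.02 to 0.04, against 0.25 to 0.81 among the other 5 tissues. Without the mantle, a fit of 15 libraries added after the data were seen gave 3194 clusters, and between 2058 and 2505 when 1 intestine or palp library was left out, the lowest again without labial palp 2.

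**Figure D2:**
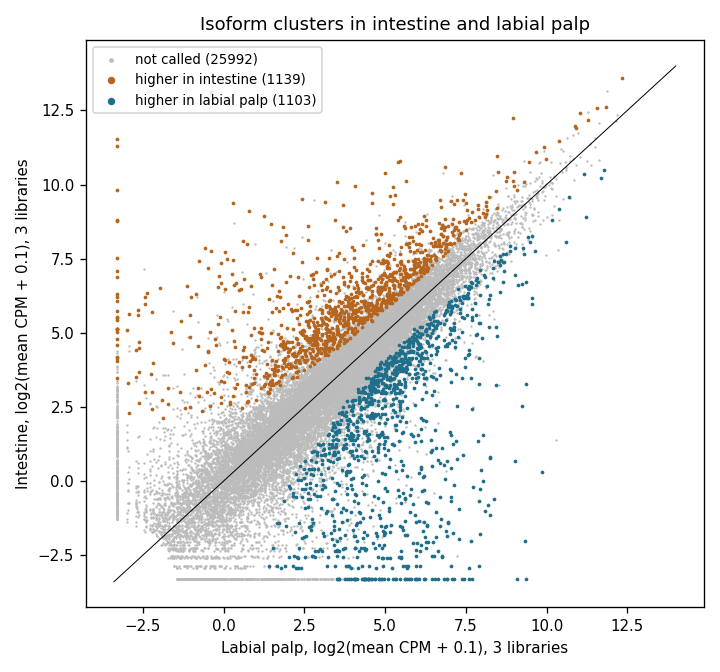
Mean CPM of each of the 28234 clusters in labial palp (x) and intestine (y), as log2(mean CPM + 0.1) over 3 libraries, with clusters that differed at an adjusted p under 0.05 in colour and the line of equal level in black. Of the 1103 clusters higher in the labial palp, 63 lie on the lower edge, where the intestine is at 0, and of the 1139 higher in the intestine, 26 lie on the left edge, where the palp is at 0.

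Among the clusters that differed, fold changes were larger on the palp side. The median size of the log2 fold change was 1.88 among clusters higher in the intestine (quartiles 1.33 and 2.79) and 2.49 among those higher in the palp (quartiles 1.57 and 5.58), while over all tested clusters it was 0.60. A log2 fold change of at least 3 was found for 248 of the 1139 and 464 of the 1103. The smallest changes that passed were 0.74 and 0.78. Clusters higher in the palp were also less abundant, with a median CPM of 36.3 in the palp and 4.39 in the intestine. Those higher in the intestine had 60.2 in the intestine and 13.3 in the palp. The lower tissue was at 0 in 63 of the 1103 and 26 of the 1139, where the size of the fold change is not measured. The part of abundance in the larger changes was not tested. Of 2392 tested clusters with a fitted change of at least 3 in either direction, 712 passed, so many large fitted differences did not. Some of those that did not pass had few reads, where a fitted change is uncertain. The parts of read number and of the spread between libraries were not tested.

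Libraries of the tissues did not overlap in 915 of the 1139 clusters higher in the intestine, and in 981 of the 1103 higher in the palp. Among all tested clusters every intestine library exceeded every palp library in 9.84%, and the reverse held in 12.5%. Within same-numbered pairs, the intestine was above the palp 3 times of 3 in 1092 of the 1139, and the palp above the intestine in 1077 of the 1103, against 23.5% and 24.8% of all tested clusters. The same counts selected the called clusters, so these numbers without overlap and by pair are descriptions and no support for the calls. The replicate number also had an effect at an adjusted p under 0.05 in 274 of the clusters higher in the intestine (24.1%) and in 150 of those higher in the palp (13.6%), against 16.8% of all tested.

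In reads, the clusters higher in the intestine made up a large part of that tissue. They held 17.9%, 21.2% and 21.8% of the counts of intestine 1, 2 and 3, and 5.89%, 6.88% and 7.06% of those of the palp libraries. Clusters higher in the palp held 9.68%, 10.05% and 10.9% of the palp counts and 2.14%, 2.27% and 2.34% of the intestine counts. These shares describe clusters that the same counts selected. Their median mean CPM in the higher tissue was 60.2 for the intestine and 36.3 for the palp.

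The most abundant cluster that was higher in the intestine in both fits, with libraries that did not overlap, was i1_ICE_sample8a197f|c284029/3/1727.1, the third of all clusters by mean level in the intestine. It had 103298, 80522 and 74208 reads in intestine 1, 2 and 3, which is 0.983%, 0.807% and 0.726% of their counts. Labial palp 1, 2 and 3 had 8, 15 and 0 reads. All 3 intestine libraries were thus far above every palp library. The level was 8836 ± 818 CPM in the intestine and 0.667 ± 0.685 CPM in the palp (SD, n = 3 libraries each), a log2 fold change of 13.89 (standard error 1.15, adjusted p = 0.0201 with the block and 0.0423 without it, edgeR). In the other tissues it was far below the intestine level. It had 86, 51 and 67 reads in the mantle, above every palp library, and 7, 14 and 0 in the gill, 7, 20 and 0 in the siphon and 33, 0 and 0 in the foot (labelled foot muscle). Replicate 3 was at 0 in all tissues other than intestine and mantle.

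On the palp side the corresponding cluster was i0_ICE_sample8a197f|c19/5/958, the seventh of all by mean level in the palp. Labial palp 1, 2 and 3 had 39553, 35789 and 39179 reads and intestine 1, 2 and 3 had 11778, 10648 and 12215. The groups did not overlap and both were tight. Its level was 3277 ± 157 CPM in the palp and 1198 ± 133 CPM in the intestine (SD, n = 3 libraries each), and its log2 fold change of intestine over palp was -1.46 (standard error 0.119, adjusted p = 0.0191 with the block and 0.0428 without it, edgeR). It was read in all 18 libraries, with 35123 to 43728 reads in the gill, 12202 to 16854 in the mantle, 6290 to 8904 in the siphon and 5155 to 5731 in the foot. The siphon and foot libraries had higher totals. In CPM on library totals it was at 3096 to 3707 in the gill, 1119 to 1391 in the mantle, 428 to 547 in the siphon and 318 to 364 in the foot. The mantle was thus near the intestine level.

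On/off clusters were counted as those with at least 10 reads in each library of 1 tissue and 0 in each library of the other. They numbered 21 for the intestine and 121 for the labial palp. With every library thinned to the smallest total, an alternative added after the data were seen, the numbers were again 21 and 121. Of the 21, 11 differed at an adjusted p under 0.05 with the block and 12 without it (edgeR), and of the 121, 52 and 36 did. Over all tested clusters 4.03% and 3.91% were called higher in the intestine and in the palp with the block (0.953% and 1.18% without it), but the same counts chose the on/off clusters, so nothing is read from these numbers. In each library of their own tissue, 9 of the 21 and 33 of the 121 had at least 100 reads, and 3 and 5 had at least 1000. The deposited estimate itself was exactly 0 in the other tissue for all 21 and for 117 of the 121. With at most 3 reads allowed over the other tissue the numbers were 37 and 216. Leaving out 1 library, which relaxes the rule, gave 36 to 42 for the intestine and 150 to 209 for the palp, with 42 reached without labial palp 1 and 209 without intestine 1.

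Reads of the intestine-only set were concentrated in few clusters. The first, i1_ICE_sample8a197f|c14151/1/1582.1, had 43577, 21897 and 23018 reads in intestine 1, 2 and 3 and 0 in each palp library, and it took 44.9% of the reads of the 21 clusters. It stood at least 10490-fold higher in intestine than the floor of 3 reads per palp library (adjusted p = 0.0201 with the block and 0.0216 without it, edgeR). Elsewhere it was read at 37, 31 and 44 in the mantle, 7, 6 and 0 in the gill, 4, 3 and 0 in the siphon and 41, 0 and 0 in the foot. The second and the third of the 21 had 22396, 14543 and 34860 reads and 6622, 7218 and 11707 reads in intestine 1, 2 and 3. After these came a drop, the fourth having 614, 1248 and 444.

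The palp-only set was larger and more even, its first cluster taking 16.5% of its reads. This cluster, i2_ICE_sample8a197f|c1153/23/2756, had 12970, 2863 and 7620 reads in labial palp 1, 2 and 3 and 0 in each intestine library. It was at least 2387-fold higher than the floor of 3 reads per intestine library (adjusted p = 0.0227 with the block and 0.0407 without it, edgeR). The palp libraries spread widely, labial palp 2 being the lowest. Unlike the first intestine-only cluster it was read widely, at 30926, 3333 and 26362 in the gill, 5731, 2657 and 2575 in the mantle, 2197, 878 and 3740 in the siphon and 69, 51 and 290 in the foot. Replicate 2 was the lowest of the 3 in palp, gill, siphon and foot.

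**Figure D3:**
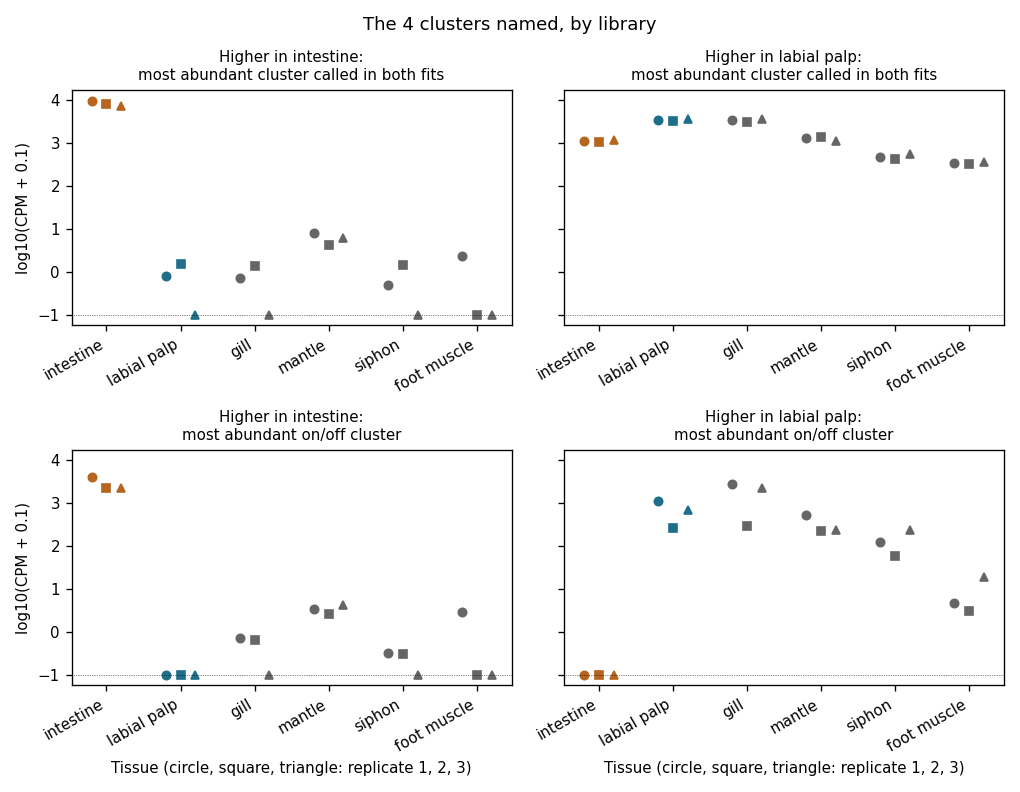
Level of the 4 named clusters in each of the 18 libraries, as log10(CPM + 0.1) with CPM on library totals, by tissue (circle, square and triangle are replicates 1, 2 and 3, and the dotted line is 0 reads). The 2 clusters higher in the intestine are near 4 and above 3 there and below 1 in every other tissue. The 2 higher in the palp are also read in gill and mantle. For the more abundant of these 2, the gill is near the palp level and the mantle near the intestine level.

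The sets as counted were described in the same tissues. Of the 21 intestine-only clusters, 20 had their highest mean CPM (on library totals) of the 6 tissues in the intestine, whereas 35 of the 121 palp-only clusters had theirs in the palp. Of all tested clusters with a higher intestine mean, 62.6% were highest in the intestine. With a higher palp mean, 42.4% were highest in the palp. By the rule that chose them, both sets had 0 reads in the partner tissue. At least 10 reads summed over the gill libraries were found for 8 of the 21 and 114 of the 121, and over the mantle libraries for 12 and 119. Over all tested clusters this minimum was reached by 95.4% in the gill and 91.3% in the mantle, so the palp-only clusters were near the share of all clusters and the intestine-only clusters were below it. No cluster of either set was at 0 in all 4 other tissues.

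The other 4 tissues were not in the fit, and the clusters that differed were described there in the same way. CPM across the 6 tissues was on library totals, without the TMM scaling. Of the 1139 clusters higher in the intestine, 1031 (90.5%) had their highest mean CPM of the 6 tissues in the intestine, against 62.6% of the 11599 tested clusters with an intestine mean above the palp mean. Of the 1103 higher in the palp, 441 (40.0%) were highest in the palp, 267 (24.2%) in the gill, 116 (10.5%) in the foot, 145 (13.1%) in the siphon and 134 (12.1%) in the mantle. Of the 16635 tested clusters with a higher palp mean, 42.4% were highest in the palp, 25.5% in the gill, 7.78% in the foot, 7.78% in the siphon and 16.6% in the mantle. The shares for palp and gill were thus near those of all tested clusters, those for foot and siphon were above them and that for the mantle was below. Among the calls that also passed without the block, 95.1% of 266 were highest in the intestine and 42.3% of 326 in the palp.

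**Figure D4:**
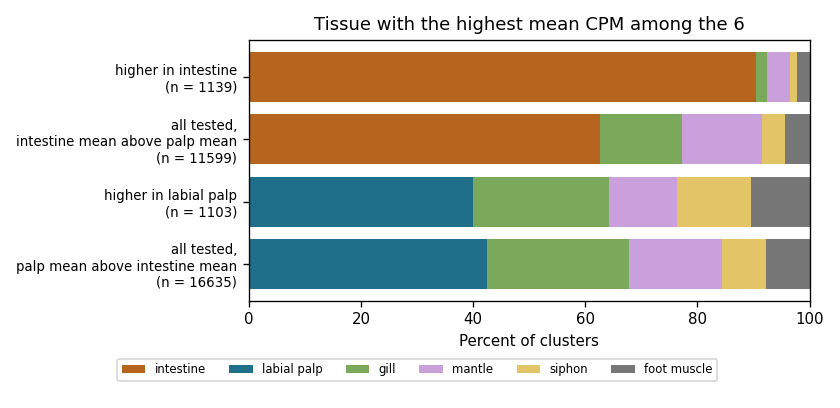
Share of clusters (percent) by the tissue that had the highest mean CPM (on library totals) among the 6, for the clusters that differed in each direction and for all tested clusters of the same direction of means. Intestine is the highest tissue for 90.5% of the clusters higher in the intestine, and palp for 40.0% of those higher in the palp (62.6% and 42.4% over all tested clusters of the same direction).

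Asked another way, the gill level of 885 of the 1103 clusters higher in the palp (80.2%) was nearer to the palp than to the intestine on log2(CPM + 0.1), against 61.6% of all tested clusters with a higher palp mean. The mantle was nearer to the palp for 66.6% (42.7% of all those tested), the siphon for 58.6% (32.4%) and the foot for 48.8% (26.0%), so each of the 4 tissues was above its share over all clusters. For the 1139 clusters higher in the intestine, the level nearer to the intestine than to the palp was found for 14.2% in the gill, 16.9% in the mantle, 8.87% in the siphon and 7.90% in the foot. Over all tested clusters with a higher intestine mean these shares were 32.5%, 26.4%, 17.0% and 13.8%. In median CPM on library totals, the clusters higher in the intestine were at 57.0 in the intestine and between 7.76 and 15.4 in the other 5 tissues. The clusters higher in the palp were at 38.8 in the palp, 32.8 in the gill, 21.5 in the mantle, 16.6 in the siphon, 12.0 in the foot and 4.12 in the intestine. The intestine had the lowest median of the 6 tissues in this set, whereas over all tested clusters with a higher palp mean its median of 5.80 was above those of the foot (4.23) and siphon (5.31). The selection put the intestine below the palp but did not use the other 4 tissues. The median size of the log2 fold change was 1.88 and 2.49 among the clusters higher in intestine and palp, against 0.60 over all tested. All tested clusters were split by their means on library totals and were not matched in size of change. The part of this in the shares of nearer and of highest tissue was not tested. The 100 most abundant clusters held 30.8% to 42.4% of the counts in the foot and 27.3% to 34.5% in the siphon. In the intestine and the palp they held 19.7% to 24.4% and 16.6% to 20.3%. The part of such differences in the CPM levels across tissues was not tested. The gill and palp libraries share the replicate numbering, and its part in these levels was not tested.

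Clusters that differed had a higher median length than all clusters. The length implied by count and FPKM had a median of 1469 bases among the clusters higher in the intestine and 1640 among those higher in the palp, with 1340 over the 27096 tested clusters that had a value. Clusters with more reads are more readily called, and the part of read number in this was not tested.

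Reads were more concentrated in the intestine. The 10 most abundant clusters of each library held 6.06%, 8.14% and 7.38% of the counts of intestine 1, 2 and 3 and 4.38%, 5.34% and 4.76% of those of labial palp 1, 2 and 3. Every intestine library was above every palp library. The means were 7.19% ± 1.05 and 4.83% ± 0.485 (SD, n = 3 libraries each, 2-sided exact permutation test, p = 0.1, which is the lowest value possible for 3 against 3 libraries). This and the following permutation tests did not use the pairing by replicate number. On FPKM, which removes length, the shares were 9.38%, 9.35% and 10.05% against 6.40%, 7.86% and 8.23% (exact permutation test, 2-sided p = 0.1).

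For longer lists the tissues overlapped, although the intestine was higher in 3 of 3 same-numbered pairs. The 100 most abundant clusters held 19.7%, 24.4% and 23.3% in the intestine and 16.6%, 20.3% and 19.1% in the palp (exact permutation test, 2-sided p = 0.2). With 1000 clusters the shares were 48.3%, 54.4% and 54.4% against 44.7%, 49.9% and 49.3% (exact permutation test, 2-sided p = 0.3). In both tissues replicate 1 was the least concentrated. It took 1102, 765 and 768 clusters to reach 50% of the counts in the intestine and 1351, 1004 and 1043 in the palp (exact permutation test, 2-sided p = 0.3). Without labial palp 1 the difference in means dropped from 4.42 to 2.77 percentage points for the top 1000, and that in the number of clusters went from -254 to -145.

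**Figure D5:**
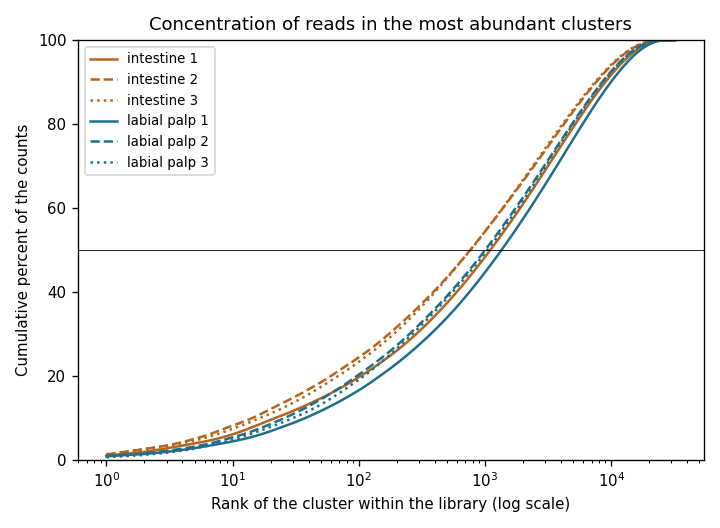
Cumulative share of the counts (percent) against the rank of the cluster within each of the 6 libraries (log scale). The intestine curves lie above the palp curve of the same number, reaching 50% at 765 to 1102 clusters in the intestine and 1004 to 1351 in the palp.

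Fewer clusters were detected in the intestine within each number. At least 10 reads were found for 23351, 21106 and 21078 clusters in intestine 1, 2 and 3 and for 24602, 22386 and 22523 in labial palp 1, 2 and 3. The palp was higher in 3 of 3 pairs, but the tissues overlapped because replicate 1 was high in both (exact permutation test, 2-sided p = 0.3). Thinned to the smallest library, the values were 23234, 21106 and 21001 against 24254, 22211 and 22340, and the difference in means (intestine minus palp) went from -1325 to -1155.

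The most abundant clusters were largely shared. By mean CPM on library totals, 5 of the top 10, 66 of the top 100 and 672 of the top 1000 were on the lists of both tissues. Of the top 100 of the intestine, 33 were higher in the intestine and 3 higher in the palp by the test with the block, and of the top 100 of the palp, 9 were higher in the palp and 10 higher in the intestine. Over all tested clusters the shares were 4.03% for the intestine and 3.91% for the palp, but the lists were ranked by the tissue means that the test compares. Among single libraries, the top 100 shared 61 to 67 clusters between tissues of the same number, 56 to 66 within a tissue and 45 to 53 where both differed.

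The first cluster was the same in both tissues. It held 0.831%, 1.29% and 1.31% of the counts in intestine 1, 2 and 3 and 0.458%, 0.645% and 0.517% in labial palp 1, 2 and 3, a log2 fold change of 1.23 (standard error 0.170, adjusted p = 0.0359 with the block and 0.156 without it, edgeR). Every intestine library was above every palp library. The ninth cluster of the intestine ranked 209 in the palp, with 0.238%, 0.458% and 0.637% against 0.0343%, 0.0591% and 0.0627% (log2 fold change 3.20, standard error 0.198, adjusted p = 0.0171 with the block and 0.0549 without it, edgeR). In contrast, the third cluster of the palp had 0.441%, 0.494% and 0.5002% in the palp and 0.399%, 0.400% and 0.471% in the intestine. On these library totals the palp was above the intestine in each same-numbered pair. On the TMM-scaled counts of the fit no such difference was left (log2 fold change -0.01, standard error 0.128, adjusted p = 0.961, edgeR). The eighth cluster of the palp spread widely between numbers in both tissues, at 0.847%, 0.000880% and 0.192% in labial palp 1, 2 and 3 and 0.446%, 0% and 0.0940% in intestine 1, 2 and 3. Its adjusted p for replicate number was 0.0563 (edgeR), which did not pass the threshold.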

How the data were processed

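RNA-seq libraries of 3 intestine and 3 labial palp pools were compared. The authors deposited for each library an estimated count and an FPKM value (fragments scaled by transcript length and mapped reads) of the same 32250 isoform clusters. The submitters' processing notes name RSEM, Bowtie2 and DESeq 1.10.1 with no settings; the filters were not stated in any source used here. RSEM divides reads among similar sequences, so counts of near-identical clusters are uncertain. The tissues, clusters and tests were chosen with earlier results of these data known. Among these results was that the replicate 3 libraries of both tissues deviate together.

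The expected counts (55.1% to 63.0% of them not whole) were rounded, and the 28234 clusters whose reads in the 6 libraries added up to 10 or more entered a quasi-likelihood F-test (edgeR 4.0.16, R 4.3.3, TMM normalization, tissue and replicate number as terms, Benjamini-Hochberg adjustment, threshold 0.05). Standard errors were derived from this test, as the size of the log2 fold change divided by the square root of F. Where a tissue is at or near 0 reads they do not measure the uncertainty of the fold. In simulated counts with known changes the share of false calls was above the nominal one. Totals per library lay between 9982441 and 11532787. With the block, the p-values measure the spread left after tissue and replicate number, on 2 residual degrees of freedom. Only without the block do they measure the whole spread between pools of a tissue. The numbers were taken as pairing the libraries because the deviations of same-numbered libraries from their tissue means correlated at 0.791, 0.745 and 0.753, each above 0.1. Alternatives were no block, other normalizations and filters, DESeq2 1.42.0, limma 3.58.1 on log2(FPKM + 0.1) and log2(FPKM + 1), more tissues in the fit, and leaving out libraries. Shares and counts of clusters were compared with exact permutation tests in scipy 1.17.1, which permuted all 6 libraries and did not use the pairing. A cluster was on/off with at least 10 reads in each library of 1 tissue and 0 in the other, and folds against 0 use a floor of 3 reads per library, which covers counting error only. The named clusters were, in each direction, the most abundant one called with and without the block with libraries that did not overlap, and the most abundant on/off one; other clusters are given by rank and were chosen after their values were seen. Sequences of the clusters were not analysed here.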

Additional observations from a re-analysis of the deposited data

How the results depend on the processing

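With the replicate block removed, 603 clusters differed, 269 higher in the intestine and 334 higher in the palp (edgeR). DESeq2 with the replicate block gave 7812, 3826 and 3986. limma on log2(FPKM + 1) gave 3818 in all and 2457 higher in the palp, and on log2(FPKM + 0.1) 2034 higher in the palp, with the replicate block. The fit of all 18 libraries with the replicate block gave 2250, 840 and 1410. Without intestine 1, 2 or 3 it gave 1640, 1454 and 1562, of which 620, 537 and 571 were higher in the intestine, and without labial palp 1, 2 or 3 it gave 1535, 1413 and 1440, of which 492, 440 and 477 were. The fit of 15 libraries without the mantle gave 1744 higher in the palp, and that fit and the leaving out of libraries from the fits of 15 and 18 were added after the data were seen. With 1 library or 1 replicate number left out, the clusters that differed numbered 0 to 2505, those higher in the intestine 0 to 1077 and those higher in the palp 0 to 1455. All these zeros came from fits of 4 or 5 libraries with 1 residual degree of freedom. By replicate number, 2760 clusters without replicate 2, 2159 without replicate 3 and 0 without replicate 1 differed in such fits of 4 libraries. The part of the lost degrees of freedom in the zeros was not tested. In the fits of 4 or 5 libraries, between 2233 and 2242 of the 2242 clusters were still tested for tissue, and at most 1 of them changed direction. Clusters that differed by replicate number were 0 to 2760 with 1 number left out. On/off clusters were 37 and 216 with at most 3 reads allowed in the other tissue, and 182 for the palp on FPKM of at least 0.3. With 1 library left out they were 36 to 42 and 150 to 209. The cause of these changes was not tested.

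The 4 named clusters kept their direction under every alternative run. They passed 0.05 except with 1 library or 1 number left out of the fit of 6, where adjusted p rose to at most 0.0986 (edgeR). The concentration measures kept their direction under all alternatives, FPKM included. Counting noise limits the comparison of clusters with few reads, and 3 pools per tissue limit the rest.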

Other observations

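Rows that share a cluster ID up to a final suffix may be pieces of 1 consensus sequence, although the sources do not say so. Of the 21 intestine-only clusters, 4 had such a partner row, and 3 of the 4 partners had at least 10 reads in the palp. Of the 121 palp-only clusters, 23 had a partner, and 10 of these had at least 10 reads in the intestine. With counts summed over the shared IDs, which was added after the data were seen, 18 and 103 were on/off. Among the 78 IDs with several rows that differed between the tissues, the rows moved in the same direction in 77 and in opposite directions in 1 (edgeR with the replicate block). In the summed counts, 2271 of 25279 IDs differed, 1155 higher in the intestine and 1116 higher in the palp (edgeR with the replicate block).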
